A study of Mus musculus with 8 samples.

Results

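The serum immediate-early genes examined here are 10 transcription factor genes and related genes, Fos, Fosb, Fosl1, Fosl2, Jun, Junb, Egr1, Egr2, Egr3 and Ier2, and their members in the data are the YTHDF3 peaks that the deposited lists assign to 1 of these names. Of the 10 genes, 9 had a peak and 8 had a peak in an exon of the gene itself. Their 87 peaks merged into 27 of the 39979 regions of the series, and 11 of these 27 regions, from 5 genes, were among the 6531 regions called in all 4 peak lists. RNA bound to YTHDF3 was immunoprecipitated (IP) and sequenced from wild-type C57BL/6 mouse embryonic fibroblasts (MEFs), alongside input RNA taken without an antibody. Both groups were MEFs at 5 to 6 passages, derived from day 13.5 embryos and grown in DMEM with 10% FBS. The normal group was left untreated, and the starved group was kept for 2 h in a nutrient-deprived medium, which per the study's methods was HBSS with HEPES, a salt solution that holds no serum. Each condition had 2 replicates, each with 1 IP and 1 input library, and the labels do not say whether replicates came from separate embryos, so p-values measure only the spread between these samples.

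Immediate-early genes are transcribed within minutes of serum or growth factor addition, without new protein synthesis, and their mRNAs are short-lived. Growth factor signals reach them in large part through ERK, which acts on partners of SRF at their promoters. FOS and JUN proteins pair to form AP-1, and EGR proteins are zinc finger factors that control a later wave of genes. YTHDF3 is a cytoplasmic reader of N6-methyladenosine (m6A), a mark placed on adenosines within short consensus sequences of which GGAC is the core, often near the stop codon.

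To show what such a sequence looks like in these transcripts, the GGAC nearest to the stop codon that lay inside the peaks of both normal lists is printed below for the genes that had one, apart from Egr1, with 10 bases on either side. The sequences were read 5′ to 3′ from the GRCm38 (mm10) reference on the strand of the gene, written as DNA, with GGAC in capitals. None was measured as methylated here.
Jun: tacacaagatGGACtgggttgcga
Junb: aggggtcaagGGACacgccttctg
Fosl2: gtagcagtggGGACcagtcatcag
Fosb: gtgtgtgtgtGGACcctttgactc
Egr2: tctcgaaccaGGACaccgtgagat
Egr3: tccagggcatGGACcccatccggg
The Jun sequence (chr4:95050128-95050151, minus strand) is in the 3′ UTR, with the adenosine of GGAC 128 bases after the stop codon. The Junb sequence (chr8:84977396-84977419, minus strand) is in the coding sequence, with that adenosine 12 bases before the end of the stop codon. The Fosl2 sequence (chr5:32153131-32153154, plus strand) is also coding, 46 bases before that end. These 3 sites lay inside a peak in all 4 lists. The Fosb sequence (chr7:19304733-19304756, minus strand) is in the 3′ UTR, 97 bases after the stop codon, and lay inside peaks of the normal lists but of neither starved list. The Egr2 sequence (chr10:67540968-67540991, plus strand) is coding, 8 bases before the end of the stop codon, and lay inside a peak in 3 lists, all but starved replicate 2. The Egr3 sequence (chr14:70079376-70079399, plus strand) is coding, 517 bases before that end, and lay inside a peak in all lists but starved replicate 1. Within the exonic sequence of the 11 regions called in all 4 lists, GGAC occurred 5.47 times per kb, and 9 of the 11 regions (81.8%) held at least 1. Across the 5965 regions called in all 4 lists with exons on a single strand, it occurred 4.75 times per kb, and 78.1% held at least 1. ATTTA, the core of AU-rich elements that mark many short-lived mRNAs, occurred 0.940 times per kb in the 11 regions and 0.666 times per kb in the 5965. By region, ATTTA occurred 8 times in Fosl2 exon 4, 3 times in Egr2 exon 2, 2 times each in Junb and Fosb exon 1, and 1 time in Fosb exon 4. The other member regions, Jun among them, held 0. The counts took in all exonic sequence of a region and not the 3′ UTR alone. The densities are descriptions of the sequence and were not tested.

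The number of deposited peaks per list ranged from 17546 (normal replicate 1) to 24911 (starved replicate 2). Peaks were kept where the IP value was at least 2 times the input value with p below 0.0001, the study's definition of a target, and these held 8818619 to 19271667 IP reads and 2507434 to 5157523 input reads per library. These are reads inside called peaks alone, so the depth of the libraries is unknown. Of 10 fibroblast marker genes, 7 had a peak and 3 (Col3a1, Pdgfrb and Twist2) had one in all 4 lists, whereas Col1a1, Vim and Twist1 had none. No peak named any of 4 epithelial markers. Of 3 endothelial markers, Kdr had a peak in all 4 lists, with 29 to 89 IP reads, and Pecam1 and Cdh5 had none. The peaks named for the haematopoietic marker Csf1r lay in exons of Pdgfrb, its neighbour.

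The immediate-early genes fell into 3 patterns, which the plot of peaks along their transcripts shows. Jun, Junb and Fosl2 were covered by peaks along most of their transcripts in all 4 lists. Fosb, Egr1, Egr2 and Egr3 were covered more broadly in both normal lists than in either starved list, with the exception of Egr3, whose 23.4% in normal replicate 1 was below its 29.8% in starved replicate 2. Fos had no peak in any list, and no peak under another name touched its exons. Fosl1 had a single peak, which was intronic, and Ier2 had a single exonic peak.

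**Figure D1:**
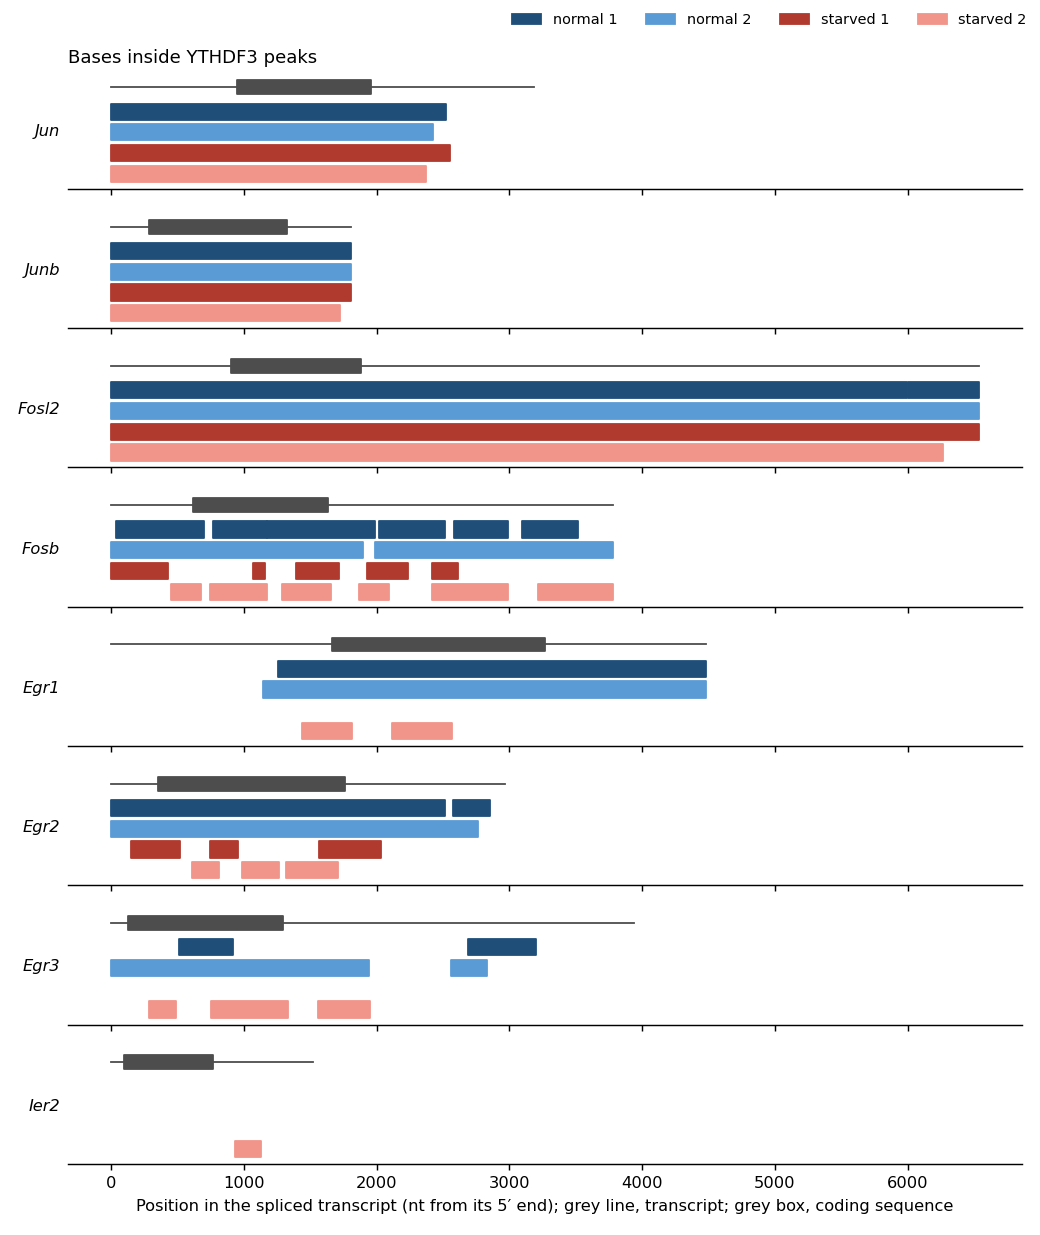
Bases of 8 spliced transcripts that lay inside a YTHDF3 peak, in nucleotides from the 5′ end, with 1 row of bars per IP library and the coding sequence as a grey box above them. Jun, Junb and Fosl2 were covered alike in all 4 libraries, whereas the bars of Fosb, Egr1 and Egr2 were shorter or missing in the starved libraries.

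Jun encodes c-Jun, the AP-1 subunit that can act as a homodimer or with a FOS protein. Its transcript has a single exon of 3189 nt, of which the region called in all 4 lists (chr4:95049671-95052350) held the whole 5′ UTR and coding sequence and the first part of the 3′ UTR. Peaks covered 79.1% and 75.9% of the transcript in normal replicates 1 and 2, and 80.0% and 74.4% in starved replicates 1 and 2. The Jun region had 15375 and 17994 IP reads in normal versus 4146 and 4274 IP reads in starved MEFs. It had 4446 and 6496 input reads in normal versus 649 and 930 input reads in starved MEFs. Both the IP and the input reads of Jun were lower in each starved library than in each normal one, although the starved libraries held more IP reads in peaks in total. Input reads of Jun per covered kb were 16.2 and 17.3 times those of the median region of the same library in normal versus 2.54 and 3.09 times in starved MEFs. With edgeR, Jun input reads fell by 2.58 on the log2 scale under nutrient deprivation (SE 0.22, adjusted p = 0.00142). Jun IP reads fell by 2.54 (SE 0.21, adjusted p = 0.00305). IP reads and input reads thus fell by nearly the same factor, and the IP/input fold of Jun was 2.79 and 2.77 in normal versus 2.74 and 3.06 in starved MEFs. The change in its IP/input ratio was 0.03 on the log2 scale, with a 95% interval of -0.32 to 0.38 (adjusted p = 0.999).

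Junb encodes a JUN protein that pairs with FOS proteins and can oppose c-Jun at some targets. Its single exon of 1809 nt lay wholly inside a peak (region chr8:84976891-84978850) in 3 lists and to 95.5% in starved replicate 2. Junb had 8454 and 8939 IP reads in normal versus 12813 and 7282 IP reads in starved MEFs. Its input reads were 2341 and 3860 in normal versus 2083 and 1704 in starved MEFs. Relative to the median region of each library, Junb input reads per kb were 11.6 and 13.5 times as many in normal versus 11.2 and 7.30 times as many in starved MEFs. The starved values lay below the normal ones, but starved replicate 1 lay close to normal replicate 1. The edgeR change was -0.45 for Junb input reads (SE 0.25, adjusted p = 0.758) and -0.38 for its IP reads (SE 0.25, adjusted p = 0.705), neither past the threshold of 0.05. The 95% interval of the input change was -1.01 to 0.11. The IP/input fold of Junb was 2.91 and 2.32 in normal versus 2.64 and 2.85 in starved MEFs, which overlap.

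Fosl2 encodes FRA-2, a FOS family protein without the strong activation domain of FOS. Its 4 exons each carried a region called in all 4 lists, the largest over exon 4 (chr5:32152431-32157940), which holds the end of the coding sequence and a 3′ UTR that makes up most of the 6537 nt transcript. Over all exons, Fosl2 had 25452 and 40298 IP reads in normal versus 54654 and 47257 in starved MEFs. Its input reads were 7177 and 12214 in normal versus 7756 and 8673 in starved MEFs. Relative to the median region, Fosl2 input reads per kb were 8.39 and 9.89 times as many in normal versus 10.1 and 8.59 times as many in starved MEFs, so that the groups overlapped. Across its 4 regions, edgeR gave log2 changes of -0.01 to 0.20 in input reads and 0.06 to 0.20 in IP reads, none of them past the threshold. For exon 4 the 95% interval of the input change was -0.44 to 0.42. The IP/input fold of Fosl2 was 2.86 and 3.30 in normal versus 3.02 and 3.63 in starved MEFs.

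Because Jun, Junb and Fosl2 were covered nearly alike in all libraries, their reads per covered kb could be set against each other inside each library, where depth cancels. The ratio of Jun to Fosl2 in input reads per kb was 1.93 and 1.75 in normal versus 0.252 and 0.359 in starved MEFs. The ratio of Jun to Junb in input reads per kb was 1.40 and 1.28 in normal versus 0.227 and 0.423 in starved MEFs. In IP reads per kb, the ratio of Jun to Junb was 1.34 and 1.53 in normal versus 0.235 and 0.455 in starved MEFs. Jun was thus above both genes in each normal library and below both in each starved one, in input reads, and the same held against Junb in IP reads. The ratio of Junb to Fosl2 in input reads per kb was 1.38 and 1.37 in normal versus 1.11 and 0.849 in starved MEFs, a narrower difference in which the groups also did not overlap. In IP reads per kb that ratio was 1.40 and 0.960 in normal versus 0.969 and 0.666 in starved MEFs, and the groups overlapped. With 2 libraries against 2, an exact two-sided permutation test of such a ratio cannot go below p = 0.333.

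**Figure D2:**
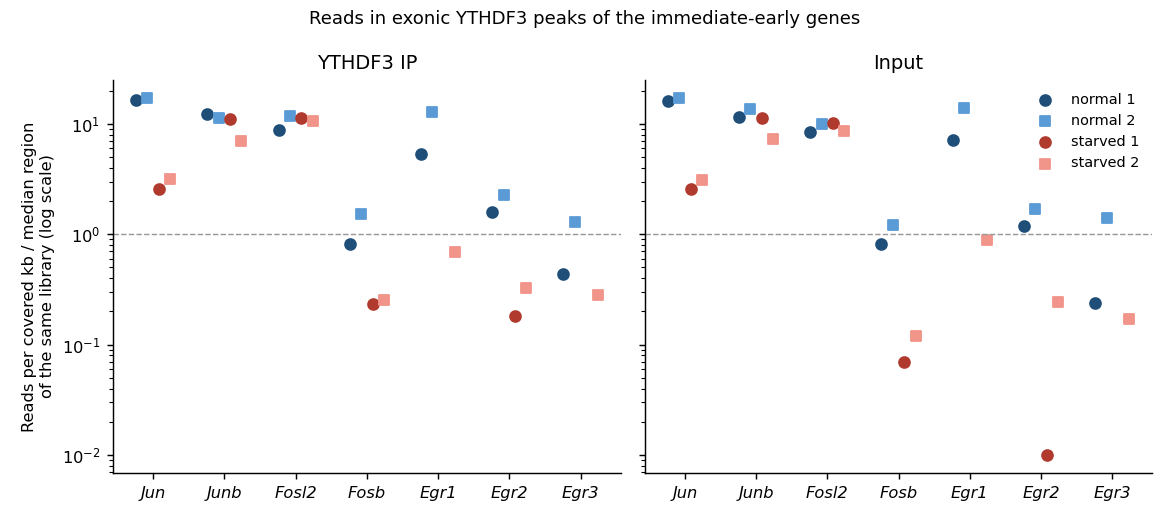
Reads per covered kb in exonic peaks of 7 immediate-early genes, divided by the median region of the same library, on a log axis, for the IP (left) and the input (right). Each point is 1 library, and a missing point means that the library had no peak in the gene. Jun input lay at 16.2 and 17.3 in normal MEFs and at 2.54 and 3.09 in starved MEFs, while Fosl2 lay between 8.39 and 10.1 in all 4.

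Fosb encodes a FOS family AP-1 subunit with strong induction by serum. Its 4 exons each overlapped a region called in all 4 lists, although in starved replicate 1 the only peak of the exon 2 region lay in the adjacent intron. Peaks covered 84.6% and 97.6% of its 3782 nt transcript in normal MEFs compared with 35.9% and 63.3% in starved ones. Only 15.0% of the transcript lay inside peaks of every list, and that part held none of its 16 GGAC. In exon 4 (chr7:19302641-19305460), which holds the end of the coding sequence and the 3′ UTR, Fosb had 624 and 1832 IP reads in normal versus 147 and 252 in starved MEFs. Its exon 4 input reads were 188 and 574 in normal versus 10 and 26 in starved MEFs. Starved libraries were lower than normal ones in both measures, and the gap was wider in the input. Input reads of Fosb exon 4 fell by 3.24 on the log2 scale with edgeR (SE 0.39, adjusted p = 0.00778) and its IP reads fell by 2.15 (SE 0.34, adjusted p = 0.0293), both per covered kb. In exon 1, Fosb input reads were 69 and 192 in normal versus 0 and 2 in starved MEFs, which is below the floor of 3 reads used for folds. Exon 1 passed both edgeR tests (adjusted p = 0.0219 for the input and 0.0113 for the IP), with IP reads of 234 and 790 in normal versus 45 and 27 in starved MEFs. The size of the fitted change in its input depends on how counts near 0 are handled and is not given as a bound. In exon 2, IP reads were 125 and 414 in normal versus 19 and 107 in starved MEFs and fell by 2.19 on the log2 scale (SE 0.39, adjusted p = 0.0488), and the input did not pass (adjusted p = 0.123). The 19 IP reads of starved replicate 1 in that test come from the intronic peak, which touched no exon. Exon 3 passed neither test, with 5 and 25 input reads in normal versus 0 and 2 in starved MEFs.

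The IP/input fold of Fosb exon 4 was 2.68 and 3.19 in normal versus 6.30 and 6.46 in starved MEFs. Both starved values lay above both normal values, and Fosb exon 4 was the 1 member region of 11 whose fold was at least 1.8 times higher in both replicates, the study's cutoff, as were 0.23% of all 6531 regions. No member region was lower by that much (0.322% of all regions). Peaks were kept only at a fold of at least 2, so most member regions could not show such a fall and stay in all 4 lists. Jun, with folds of 2.79 and 2.77 in normal MEFs, is an example. The lack of falls is therefore not read as a result. In the edgeR test of the IP/input ratio, the change of Fosb exon 4 was 1.06 (SE 0.30, unadjusted p = 0.00236, adjusted p = 0.999), so it did not pass. The starved folds of Fosb rest on 10 and 26 input reads. Weak peaks entered the lists only at a higher fold: among peaks with under 50 IP reads the lowest fold was 2.43 to 3.11, depending on the library, against 2.01 in each library for peaks with at least 1000. The part that this had in the higher starved fold of Fosb was not tested.

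Egr2 encodes the zinc finger factor KROX20. Its exon 2 (chr10:67539541-67542080), which holds most of the coding sequence and the 3′ UTR, had 1571 and 2797 IP reads in normal versus 77 and 159 in starved MEFs. It had 354 and 704 input reads in normal versus 1 and 27 in starved MEFs. Every starved value was far below every normal value, in reads that were not scaled. The peaks covered 2480 and 2410 bp of this region in normal MEFs, but only 680 and 880 bp in starved MEFs, and reads outside them are not in the lists. Per covered kb, Egr2 input reads fell by 3.50 on the log2 scale (SE 0.62, adjusted p = 0.0352) and IP reads fell by 3.16 (SE 0.34, adjusted p = 0.00867). The input call was lost with DESeq2 (adjusted p = 0.292), with limma (0.109) and without the length offset (0.278), and the IP call was lost without the offset (0.210). The IP/input fold of exon 2 was 3.58 and 3.97 in normal MEFs, and 3.93 in starved replicate 2. No fold is given for starved replicate 1, where exon 2 had a single input read. The ratio changed by 0.40 (95% interval -0.46 to 1.26, adjusted p = 0.999). Exon 1 of Egr2 had 281 and 480 IP reads in normal MEFs and 36 in starved replicate 1, and no peak in starved replicate 2.

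Egr1, the founding EGR gene and a standard marker of serum stimulation, was not in all 4 lists and so entered no test across regions. Its region lies on chr18:34860971-34865070, over exons 1 and 2. Egr1 had 7504 and 20145 IP reads in normal MEFs, no peak in starved replicate 1, and 320 IP reads in starved replicate 2. The input reads were 2975 and 7973 in normal MEFs, and 93 in starved replicate 2. Peaks covered 3990 and 3850 bp in the normal lists and 830 bp in the list of starved replicate 2, where they left out the 3′ UTR. Egr1 input reads per covered kb were 7.17 and 13.9 times the median region in normal MEFs, and 0.892 times in starved replicate 2. Its IP/input fold was 2.03 and 2.53 in normal MEFs and 2.29 in starved replicate 2, so the values overlapped where a fold could be had. Peaks below a fold of 2 were not kept, so a lower starved fold of Egr1 could not appear in the lists. The overlap therefore does not show that its fold was unchanged. The ratio of Egr1 to Fosl2 in input reads per kb was 0.855 and 1.41 in normal MEFs and 0.104 in starved replicate 2.

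Egr3, a related zinc finger factor that EGR1 can induce, varied more between the normal replicates than the other EGR genes. Over all its exonic peaks, Egr3 had 143 IP and 23 input reads in normal replicate 1, and 1402 IP and 556 input reads in normal replicate 2. In starved replicate 2 it had 210 IP and 29 input reads, and in starved replicate 1 it had no peak. In unscaled reads the value of starved replicate 2 lay between the normal ones. Per covered kb and relative to the median region, Egr3 input was 0.241 and 1.42 in normal MEFs and 0.172 in starved replicate 2, which is close to normal replicate 1, so no direction is given for Egr3.

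The remaining members had no exonic peak or a single one. Fos, the prototype of the family, had no exonic base inside any peak of any library. Fosl1, which encodes FRA-1, had a single peak in starved replicate 1, in an intron, with 22 IP reads and 0 input reads. Ier2, which encodes a nuclear protein induced by serum, had 1 exonic peak, in starved replicate 2, with 62 IP reads and 14 input reads. The other peaks named Ier2 lay in exons of the neighbouring genes Cacna1a and Nacc1, since the lists name the nearest start site. The other regions outside exons, 2 upstream of Egr2 and 1 each for Fosl2 and Jun, held 12 to 45 IP reads per library and were each called in 1 or 2 lists. A missing peak means that the transcript was not enriched past the threshold at its depth and does not show that the RNA was absent.

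Over the 11 member regions called in all 4 lists, 4 fell in input reads with edgeR (Jun, Egr2 exon 2 and Fosb exons 1 and 4), where 0.766% of all 6531 regions fell, and none rose (0.214% of all regions). In IP reads, 5 of the 11 fell (the same 4 and Fosb exon 2), where 0.934% of all regions fell, and none rose (0.184%). The fall was counted over 3 of the 5 genes, and the 4 Fosb regions come from 1 transcript. The members were chosen with earlier results of these data known, so the shares over all regions are no test of them. The median change of the 11 regions was -1.14 in input reads per kb and -1.45 in IP reads per kb, beside 0.03 and 0.00 over all regions. Both medians are the values of Fosb exon 3, whose starved input of 0 and 2 reads was raised to the floor of 3, and whose edgeR input change was -2.94. With a 50% reciprocal overlap they were -0.06 and 0.0058, and without replicate 2 the input median was -0.07. Since Fosl2 gave 4 of the 11 regions and none of them passed, the median lies between 2 groups of genes, those that fell and those that did not pass the test. The calling threshold of 2 limited how far an IP/input ratio could fall. In the IP/input ratio, none of the 11 passed in edgeR (0.0153% of all regions rose and 0.0% fell). At an unadjusted p under 0.05, 2 were higher (Fosb exons 1 and 4, where 1.26% of all regions were) and 0 lower (1.55%), and DESeq2 and limma also called 0. The count of falls depended on the test: limma on the deposited values called 1 member region in the input (Jun) and 3 in the IP (Jun, Egr2 exon 2 and Fosb exon 1). Over all 6531 regions, limma called 42 lower in the input and 56 in the IP. When the covered length was not taken into account, 0 regions of all 6531 were called in either measure, and the adjusted p of Jun was 0.0790 for the input and 0.104 for the IP.

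**Figure D3:**
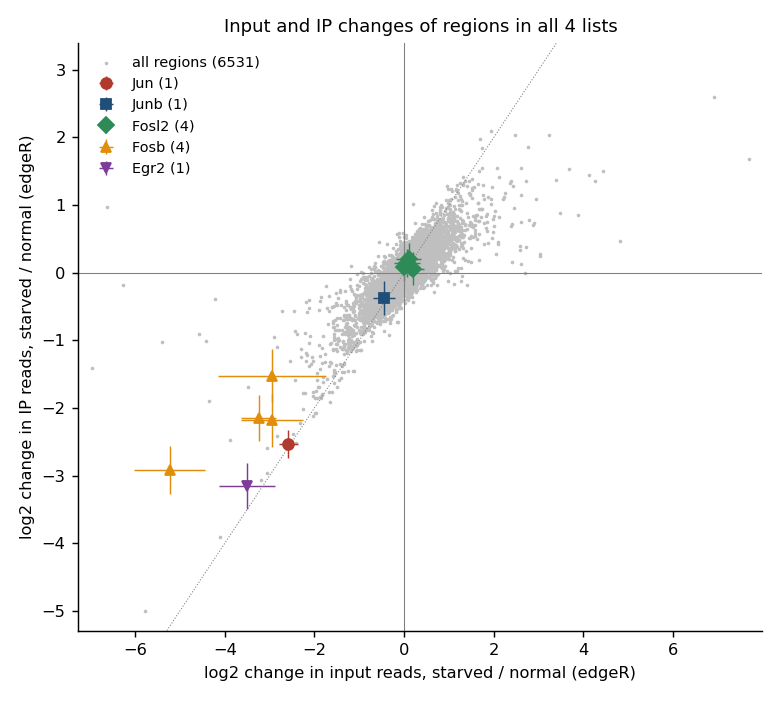
Change in input reads (x axis) and in IP reads (y axis) under nutrient deprivation, as edgeR log2 changes per covered kb, for the 6531 regions called in all 4 lists (grey) and the 11 regions of 5 immediate-early genes (coloured, with standard errors). The number of regions per gene is in the legend and the dotted line marks equal change. Jun and Egr2 lay near that line, the 4 Fosb regions above it, and Junb and the 4 Fosl2 regions near 0.

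**Figure D4:**
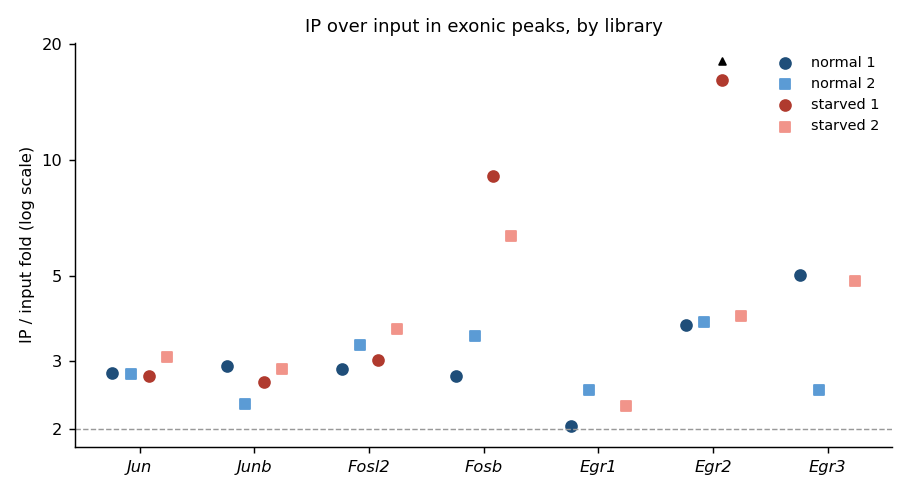
IP/input fold over the exonic peaks of 7 immediate-early genes in each library, on a log axis, with the calling threshold of 2 as a dashed line and an arrowhead above a value whose input of under 3 reads was raised to 3. Fosb lay at 2.74 and 3.47 in normal and at 9.09 and 6.33 in starved libraries, whereas Jun lay between 2.74 and 3.06. The starved values of Fosb rest on 10 and 44 input reads over all its exonic peaks.

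The input reads of other serum-responsive genes were set beside these. A list of other immediate-early genes gave 7 regions of 5 genes in all 4 lists, all with a change below 0, and 4 of the 7 regions fell in input reads (0.766% of all 6531 regions fell). The list holds 34 names, some of them aliases, and 5 had a region in all 4 lists. This list, like those of the next paragraph, was chosen with earlier results of these data known. The share over all regions is therefore given beside it as a description and is no test of the list. Dusp1, a phosphatase that switches off MAP kinases, had 2155 and 2657 input reads in normal versus 480 and 579 in starved MEFs, and fell by 1.99 on the log2 scale (SE 0.22, adjusted p = 0.00486). Csrnp1, a nuclear factor induced by growth signals, had 1103 and 1375 input reads in normal versus 257 and 284 in starved MEFs, and fell by 1.90 (SE 0.24, adjusted p = 0.00885) in 1 of its 3 regions, while the other 2 did not pass (adjusted p = 0.136 and 0.0765). Klf2, a zinc finger factor, had 487 and 499 input reads in normal versus 78 and 167 in starved MEFs, and fell by 1.57 (SE 0.28, adjusted p = 0.0363). Rhob, a small GTPase, fell by 1.14 (adjusted p = 0.0272), and Ier5 did not pass (change -0.90, adjusted p = 0.0896). IP reads of Dusp1, the same Csrnp1 region and Klf2 fell too with edgeR (adjusted p = 0.0260, 0.0293 and 0.0216). Another Csrnp1 region passed in IP reads only (adjusted p = 0.0251). Rhob, Ier5 and the last Csrnp1 region did not pass in IP reads (adjusted p = 0.0597, 0.128 and 0.0676). None of the 7 regions passed in the IP/input ratio in edgeR, also at an unadjusted p under 0.05. The median input change of this list was -1.55, beside 0.02 over all regions on the same edgeR scale and -2.58 for the members.

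A list of regulators upstream of the immediate-early response holds 20 names, some of them aliases, and 3 had a region in all 4 lists. The other names were not tested. Elk1 and Elk4, ETS factors that bind with SRF, and Mkl1, the actin-regulated SRF coactivator also named Mrtfa, gave 6 regions in all 4 lists. Their input changes ran from -0.76 to 0.71, and edgeR called 0 of them, with 0 at an unadjusted p under 0.05 (4.23% of all regions were lower and 4.01% higher at that level) and 0 by DESeq2 or limma. With 6 regions, a count of 0 is near those shares and is not read as a result. Among 13 listed genes whose proteins can pair with FOS or JUN, 7 regions of 4 genes were in all 4 lists. Of these 7, 1 rose in input reads (0.214% of all 6531 regions rose) and 0 fell (0.766%). The region that rose was that of Maf, with 6 and 63 input reads in normal versus 384 and 516 in starved MEFs (log2 change 3.23, SE 0.54, adjusted p = 0.0273). Its IP reads were 117 and 243 in normal versus 2015 and 1815 in starved MEFs. The IP/input ratio of Maf changed by -1.25 (adjusted p = 0.999). In that ratio edgeR called 0 of the 7 regions, and 1 was lower at an unadjusted p under 0.05 (1.55% of all regions were). The input call of Maf was lost with limma, and its region also overlaps an exon of Gm15655. The regions of Nfe2l1, Mafg and Mafk did not pass, with input changes of -0.84 to 0.75.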

How the data were processed

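RIP-seq libraries from 4 MEF cultures, each with an IP and an input, were analysed from 4 peak lists. The authors aligned trimmed reads to mm10 with TopHat2 2.0.13, called peaks of each IP against its input with diffReps and named them with HOMER. In 3 lists the deposited IP and input values are a signal, reads multiplied by 1 factor per library, and for normal replicate 2 the authors deposited counts. The deposited log2 IP/input ratios and p-values were used only as the peak threshold. Reads were recovered by dividing by the factor read from the spacing of the values, which left 100% of values within 0.05 of a whole number. The spacing alone gave the factor of the IP values, since the fewest IP reads in a peak were 11 to 17, so the IP counts rest on that step, and limma on the deposited values was added. The lists do not name their inputs, and the same condition and replicate was assumed. Use of strand in counting is not given in the sources used here.

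Peaks with IP/input of at least 2 and p under 0.0001 were kept and merged on 1 bp. Folds used at least 3 input reads. Tests across regions present in all 4 lists used edgeR 4.0.16 (R 4.3.3; quasi-likelihood, TMM, covered length as offset, no replicate block, Benjamini-Hochberg over 6531 regions, threshold 0.05), and alternatively with DESeq2 1.42.0 and limma 3.58.1. The ratio was fitted with a term per culture and an IP effect in each condition. Exon positions came from GENCODE on GRCm38, from the coding transcript with the longest coding sequence. Scripts were tested on simulated data. The text names all members, up to 3 regions per direction of each of 3 related lists with the largest input change, and the 5 regions nearest to the median member. Rhob, Ier5, Elk1, Elk4, Nfe2l1, Mafg and Mafk were named after their values were seen. Members and lists were chosen with earlier results of these data known. The alternatives covered thresholds, overlap, gene naming, length, scaling, tests, a replicate block and leaving out each library. Reads are not molecules, and counts carry the spread between libraries as well as counting error.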

Additional observations from a re-analysis of the deposited data

How the results depend on the processing

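The counts of member regions that fell depended on the processing, and the number of regions tested did too. Without a length offset, and with an IP/input threshold of 4, 0 member regions were called in input or IP reads; the stricter threshold left 334 regions, 1 of them a member. With a 50% reciprocal overlap, which left 4230 regions, 1 was called in each measure. Of all 4230, 79 were lower in the input and 70 in the IP. With limma, added after seeing the data, 1 was called in the input and 3 in the IP. Of all 6531 regions, 42 were lower in the input and 56 in the IP with limma, against 50 and 61 in the main fit. Leaving out 1 library gave 5 to 5 in the input and 4 to 6 in the IP, the 4 being without starved replicate 1, where Fosb exon 2 was lost. DESeq2 called 4 in the input, but not Egr2 exon 2 (adjusted p = 0.292) and with Fosb exon 2 (0.0404) in its place. Over all 6531 regions, DESeq2 called 83 lower in the input, against 50 in the main fit. Other immediate-early genes gave 0 calls without the offset and 2 to 5 when 1 library was left out, the 2 being without normal replicate 1. The call of Maf was lost without the offset, with the reciprocal overlap and with limma (0 each). In the IP/input ratio no alternative called a member. The count past 1.8-fold was 0 at the threshold of 4 and with the reciprocal overlap, and 1 to 4 when a replicate was left out, the 4 being without replicate 2.

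The median member change in IP/input turned from 0.12 to -0.27 at the threshold of 4, where 1 region was left. The median in IP reads per kb turned from -1.45 to 0.0058 with the reciprocal overlap, which left 7 member regions; it was -0.85 without centering, and, with alternatives added after seeing the data, -2.18 over the full merged region and -2.22 over genes. The median in input reads per kb was -1.14, but -0.06 with the reciprocal overlap, -0.07 without replicate 2, -2.22 without replicate 1, and -2.58 with the edgeR scaling and over genes. At the threshold of 4, members kept 6, 7, 10 and 14 peaks in normal replicates 1 and 2 and starved replicates 1 and 2, beside 22, 24, 16 and 25. In the 93 other values, these input medians included, counts stayed within 1.5 times and medians moved by less than the spread between replicates, which is wide for the input median. No other list had a region to test at the threshold of 4.

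With the replicate number as a block, 5 member regions were called in the input and 6 in the IP, all lower. Calls over all 6531 regions grew too, to 150 lower in the input and 329 in the IP, against 50 and 61 in the main fit. In the input, 7 other immediate-early regions were called, all lower, and 2 AP-1 partner regions, 1 higher and 1 lower. Same-numbered cultures deviated together (r = 0.31 in input, 0.45 in IP and 0.28 in IP/input over regions), but the labels do not say what a number marks. With 2 libraries per group, depth limits folds of peaks with few input reads.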

Other observations

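The regions whose 4 changes (input and IP, in each replicate) lay nearest to the median of the 11 member regions were in Asb1, Tead4, Kdr, Csf1 and Dhrs9, at Euclidean distances of 0.785 to 0.971 over 4 values on the log2 scale. None of these 5 regions passed the edgeR test in the input (adjusted p = 0.136 to 0.870) or the IP (adjusted p = 0.155 to 0.321). In all 4 changes the median used here is the value of Fosb exon 3, whose starved input of 0 and 2 reads was raised to the floor of 3. These regions are thus near that region and need not resemble Jun, Egr2 or Fosl2.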
